A study of Mus musculus with 28 samples.

Results

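Untreated mouse colon was compared between its far and its near end: 6 arrays of distal colon against 6 arrays of proximal colon, taken by their titles and tissue labels, which make up 12 of the 28 arrays of the series. The mice were female C57BL/6J and had received neither carcinogen nor irritant. Their age is not given in the sources used here, nor is it stated whether a distal and a proximal array came from the same mouse. The other 16 arrays came from mice of the same strain and sex given azoxymethane (AOM, a colon carcinogen, 10 mg/kg) and dextran sulfate sodium (DSS, which damages the epithelium of the colon, given at 2.5% in drinking water): early mice had 2 DSS cycles and were taken on day 42 (3 distal and 3 proximal arrays), late mice had 4 cycles and were taken on day 120 (6 distal and 4 proximal arrays). They entered the fit for its estimate of the spread and served as a second source of regional markers. Each value is the log2 signal of 1 Affymetrix probe set per gene, and 14194 genes were tested. One log2 unit is a 2-fold difference. All differences are distal minus proximal, so a positive one is higher in the distal colon.

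The colon keeps a memory of the position it had along the embryonic gut. Hox genes, which lie in clusters and are switched on in order along the body axis, mark that position, with the posterior members active toward the anus. The proximal colon receives the outflow of the small intestine and is known for fermentation and absorption of short-chain fatty acids, whereas the distal colon recovers the last sodium and water under the control of aldosterone. Mucus type, hormone cells and resident immune cells also vary along the organ.

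Before any gene is described, 2 untreated arrays have to be named. Regional markers were taken from treated mice alone: 223 genes that were called in the same direction between the regions in early and in late mice, by a fit whose spread was pooled over all 28 arrays. Each array was placed on a scale from -1, the mean proximal level of the treated mice, to 1, their mean distal level. The 5 distal arrays other than replicate 3 lay between 0.45 and 0.71, and the 5 proximal arrays other than replicate 1 between -1.06 and -0.92. Untreated distal 3 lay at -0.98 and was on the distal side for 9 of the 223 genes. Untreated proximal 1 lay at 0.32 and was on the distal side for 160 of them. Leaving out the Hox genes kept 209 markers and gave -0.99 for distal 3 and 0.30 for proximal 1. For most of these genes the 2 arrays thus carried levels of the region opposite to their label. They are written distal 3 and proximal 1 after their labels, and every direction drawn from all 12 arrays rests on those labels.

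**Figure D1:**
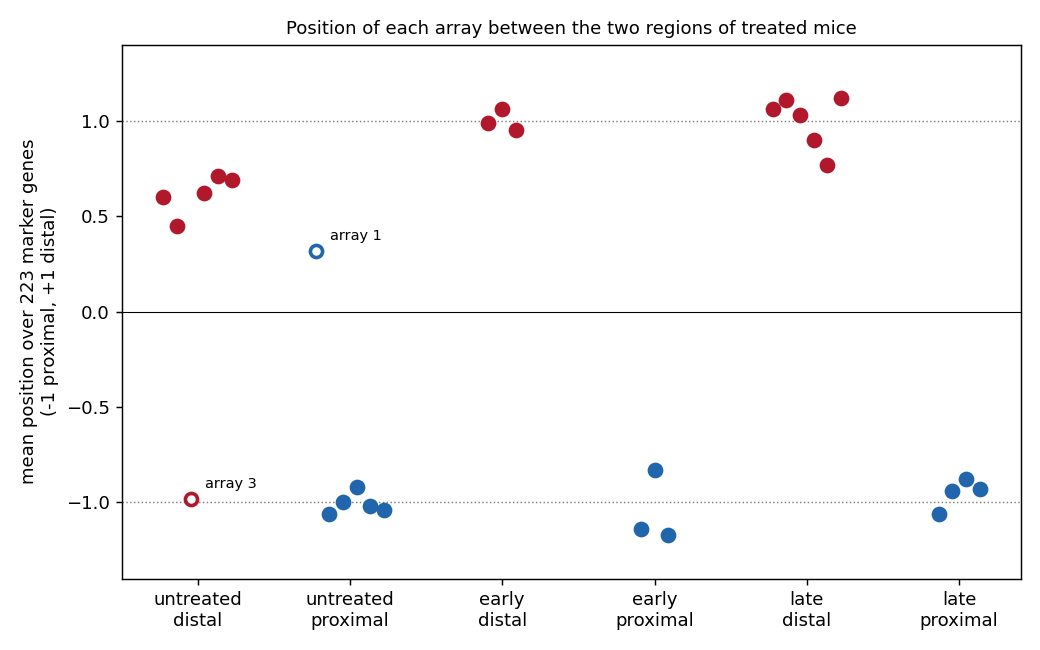
Mean position of each of the 28 arrays over 223 regional markers found in treated mice, where -1 is the proximal and 1 the distal level of those mice; red points are arrays labelled distal and blue points arrays labelled proximal. The open points are the array labelled distal 3, at -0.98 among the proximal arrays, and the array labelled proximal 1, at 0.32 just under the other distal arrays of untreated mice.

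The correlation of levels over all genes showed the same placement, as a description: distal 3 had 0.927 to 0.940 with the other distal arrays and 0.977 to 0.992 with the proximal arrays other than replicate 1. Proximal 1 had 0.939 to 0.943 with its own region and 0.952 to 0.982 with the distal arrays other than replicate 3. The placement of proximal 1 was not the same for every gene. Scnn1a stood at 8.57 and Lama3 at 8.43 there, close to the other proximal arrays (8.01 to 8.30 and 8.18 to 8.62), while Hoxd13 at 11.37 and Fxyd4 at 11.53 were close to the distal ones. Pancreatic enzyme genes stood apart in another pair of arrays: Cpa1, carboxypeptidase A1, was at 11.44 in distal 1 and 11.51 in proximal 1, against 4.05 to 4.54 in the other distal and 4.41 to 4.69 in the other proximal arrays. Array medians of the 12 untreated arrays lay between 6.634 and 6.764. Precision depends on the number of arrays and on the spread between them. The authors' table of genes leaves out most unexpressed probe sets. The median of those outside it, 4.109, is a guide to the background, and the size of a difference is uncertain where the lower region lies near that level.

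Results are given as labelled, 6 against 6, and without distal 3 and proximal 1, 5 against 5. In whole tissue, fewer cells of a type and less RNA per cell cannot be told apart. Those 2 arrays were recognised from Hox levels, which belong to the same regional contrast. The p-values without them are thus not independent of that choice. As labelled, limma called 609 genes higher (4.29% of all tested) and 786 genes lower (5.54%) in the distal colon at an adjusted p under 0.05. Without the 2 arrays it called 1605 higher (11.3%) and 1996 lower (14.1%). Of the 1395 genes called as labelled, 1394 were called without them too, all in the same direction (99.9%). These 2 fits share all other arrays, and the arrays left out ran against most regional differences. The overlap is therefore no separate support. The differences as labelled were smaller, by a median ratio of 0.74 over the genes of both sets. Without the 2 arrays, 421 genes were at least 2-fold higher and 562 at least 2-fold lower in the distal colon, and 26 and 33 genes differed in that way at least 16-fold. Arrays 4 to 6 of each region, which include neither of the 2 arrays, called 889 higher (6.26%) and 1006 lower (7.09%), and 1786 of those 1895 genes were called in the same direction by the 5 against 5 comparison (94.2% of the smaller and 49.6% of the larger set, which share arrays).

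The 6 groups share 1 estimate of the spread in these fits. Fitted alone and as labelled, the 12 untreated arrays gave 1 called gene, Scnn1a (3167 genes had an unadjusted p under 0.05). As labelled, 118 genes (0.831%) had no overlap between the 6 distal and the 6 proximal arrays, against 2775 genes (19.6%) without the 2 arrays.

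The Hox genes were higher or lower according to their place in the cluster. Of 12 posterior Hox genes (paralogue groups 10 to 13) 8 were measured, 5 of them were higher in the distal colon and none lower, with a median difference of 0.91 against -0.012 for all genes tested. Hoxd13, which patterns the hindgut and the digits, stood at 11.68 to 12.20 (median 11.91) in the 5 other distal arrays and at 3.44 in distal 3. In the 5 other proximal arrays it read 2.46 to 3.79 (median 3.77), and in proximal 1 it read 11.37. Apart from those 2 arrays the regions lay far apart, with no array between them. The difference was 5.69 ± 1.28 (SE) as labelled (adjusted p = 0.00763) and 8.42 ± 0.49 without the 2 arrays. Hox levels served to recognise those arrays. For Hox genes the separation and the SE without them thus follow in part from that choice and are no test. A second, dimmer Hoxd13 probe set gave 0.93.

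Hoxb13, a marker of the hindmost gut and the prostate, had 12.15 to 12.91 in the 5 other distal arrays against 5.21 to 6.18 in the 5 other proximal arrays, with 5.36 in distal 3 and 12.69 in proximal 1. Its difference was 4.74 ± 1.15 as labelled (adjusted p = 0.0113) and 7.15 ± 0.50 without the 2 arrays. Hoxa13, the partner of Hoxd13 in hindgut development, was much less separated, with 1.02 ± 0.31 (adjusted p = 0.0365) and 1.60 ± 0.20. Hoxd11 (1.35 ± 0.37) and Hoxd10 (0.79 ± 0.21) completed the 5 called genes. The posterior members Hoxa11 (-0.27, adjusted p = 0.327) and Hoxd12 (0.18, adjusted p = 0.487) were not called.

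Among anterior and central Hox genes (groups 1 to 9), 19 of 27 were measured, and 9 were lower and 2 higher in the distal colon (median -0.40). Hoxb6 had the largest fall: the 5 other distal arrays ran from 4.58 to 6.07 and the 5 other proximal arrays from 9.38 to 9.96, with 10.27 in distal 3 and 5.48 in proximal 1. Its difference was -2.84 ± 0.71 as labelled (adjusted p = 0.0134) and -4.36 ± 0.25 without the 2 arrays. Its cluster neighbours Hoxb4 (-1.93), Hoxb3 (-1.80) and Hoxb5 (-1.56), and Hoxd8 (-1.54), Hoxd3 (-1.42) and Hoxd4 (-1.12) of the Hoxd cluster, were also lower. In the Hoxd cluster every called gene up to group 8 was lower and every called gene from group 10 on was higher. The Hoxa cluster differed: its group 3 and group 5 members, Hoxa3 (0.55, adjusted p = 0.0153) and Hoxa5 (0.59, adjusted p = 0.0455), were higher in the distal colon too. Without the 2 arrays the counts were 13 lower and 2 higher, and the posterior count stayed at 5.

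**Figure D2:**
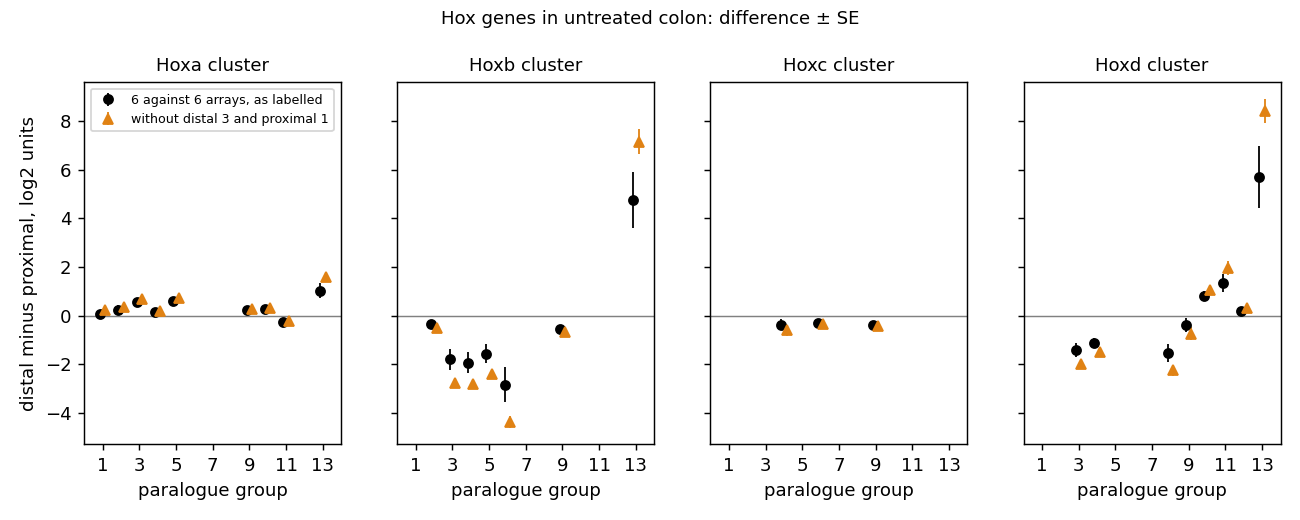
Difference between distal and proximal untreated colon for each measured Hox gene, in log2 units with SE bars, by cluster and paralogue group; circles are 6 against 6 arrays as labelled, triangles leave out distal 3 and proximal 1. Hoxb6 at -2.84 and Hoxd13 at 5.69 mark the range as labelled, and the Hoxa genes up to group 11 lie between -0.27 and 0.59.

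Gut transcription factors were measured for 26 of 33 genes, of which 1 was higher and 5 lower as labelled (4 and 5 without the 2 arrays). The lipid-sensing nuclear receptors Ppara (-1.26 ± 0.34, adjusted p = 0.0196) and Pparg (-1.22 ± 0.27, adjusted p = 0.00719) were lower in the distal colon. So were Gata5 (-1.05), a gut endoderm factor, and Cdx2 (-0.86, adjusted p = 0.00829), the intestinal identity factor, which remained abundant at 12.11 to 12.69 in the 5 other distal arrays against 13.42 to 13.56 in the 5 other proximal arrays. Isl1, a homeobox factor of hormone cells and neurons, was higher (1.71 ± 0.42, adjusted p = 0.0130). Isx, an intestinal homeobox factor that restrains vitamin A uptake and conversion, was not on that list and was lower too, with -3.55 ± 0.69 (adjusted p = 0.00459). Cdx1, a related intestinal factor, was not called (-0.01, adjusted p = 0.972).

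Axial signals had 5 higher and 5 lower of 31 measured (37 listed), and 8 and 7 without the 2 arrays. Shh, the epithelial Hedgehog ligand, was lower (-1.77 ± 0.47, adjusted p = 0.0184), as were Aldh1a1, an enzyme that makes retinoic acid (-1.37), and Crabp1, a protein that binds it (-1.22). Higher were the Wnt inhibitor Sfrp2 (1.32 ± 0.35, adjusted p = 0.0180), the growth factor Fgf18 (0.95) and Rspo3, a ligand that sustains crypt stem cells (0.83, adjusted p = 0.0385).

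Fxyd4, a regulator of the sodium pump, had the largest difference on the distal side, among the 12 largest of each direction. Its level was 12.14 to 12.71 in the 5 other distal arrays and 3.19 to 4.18 in the 5 other proximal arrays, with 3.50 in distal 3 and 11.53 in proximal 1. The difference was 5.95 ± 1.32 as labelled (adjusted p = 0.00704) and 8.75 ± 0.52 without the 2 arrays. Beside Hoxd13, Hoxb13 and Atp12a, the distal genes were Tgm3 (4.63), a transglutaminase that crosslinks proteins, Casp14 (4.60), a caspase of cornifying skin, Mptx1 (4.43), a pentraxin, Sval1 (4.31), Tmprss13 (3.95), a membrane serine protease, Fut9 (3.93), a fucosyltransferase, and Csta1 (3.60), a cysteine protease inhibitor. One more is listed in the authors' table as CYP2F1 (3.93), a name for which no mouse gene matched.

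Mptx1 differed from the rest in distal 3, where it read 12.58, close to the 13.02 to 13.42 of the other distal arrays and far from the 6.54 to 8.63 of the 5 other proximal arrays. Its difference was 4.43 ± 0.77 as labelled and 5.44 ± 0.59 without the 2 arrays. For Csta1 a second probe set gave -0.30 (adjusted p = 0.704 over all probe sets), so its 2 probe sets disagree. Tgm3 had 2 probe sets with 4.63 and 4.85.

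On the proximal side, Reg3g, an antibacterial lectin, and Slc51a, a subunit of the transporter that exports bile acids from the enterocyte, were among the 12 largest differences. Reg3g ran from 3.58 to 6.48 in the 5 other distal arrays and from 12.04 to 13.26 in the 5 other proximal arrays, with 12.60 in distal 3 and 8.81 in proximal 1. The difference was -6.08 ± 1.18 as labelled (adjusted p = 0.00459) and -8.05 ± 0.84 without the 2 arrays. Its probe set may also read near-identical Reg3 genes. Slc51a had 3.69 to 4.41 in the 5 other distal and 11.19 to 11.76 in the 5 other proximal arrays, with 11.47 in distal 3 and 4.88 in proximal 1, and a difference of -5.06 ± 1.08 (adjusted p = 0.00587) or -7.39 ± 0.39.

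Others were Nts, the hormone neurotensin (-5.05), Reg3a (-4.85), Ugt2b5, a glucuronosyltransferase (-4.78), Acaa1b, a peroxisomal thiolase (-4.50), Prap1, an acidic protein of the intestinal lining (-4.41), Ugt8a, which makes galactosylceramide (-4.23), Ceacam11 (-3.74), Isx (-3.55) and Gzma, a granzyme of cytotoxic lymphocytes (-3.37). The table marks the Ceacam11 probe set as reading other genes too. Across the genes named from these no array other than distal 3 and proximal 1 lay in the range of the opposite region.

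**Figure D3:**
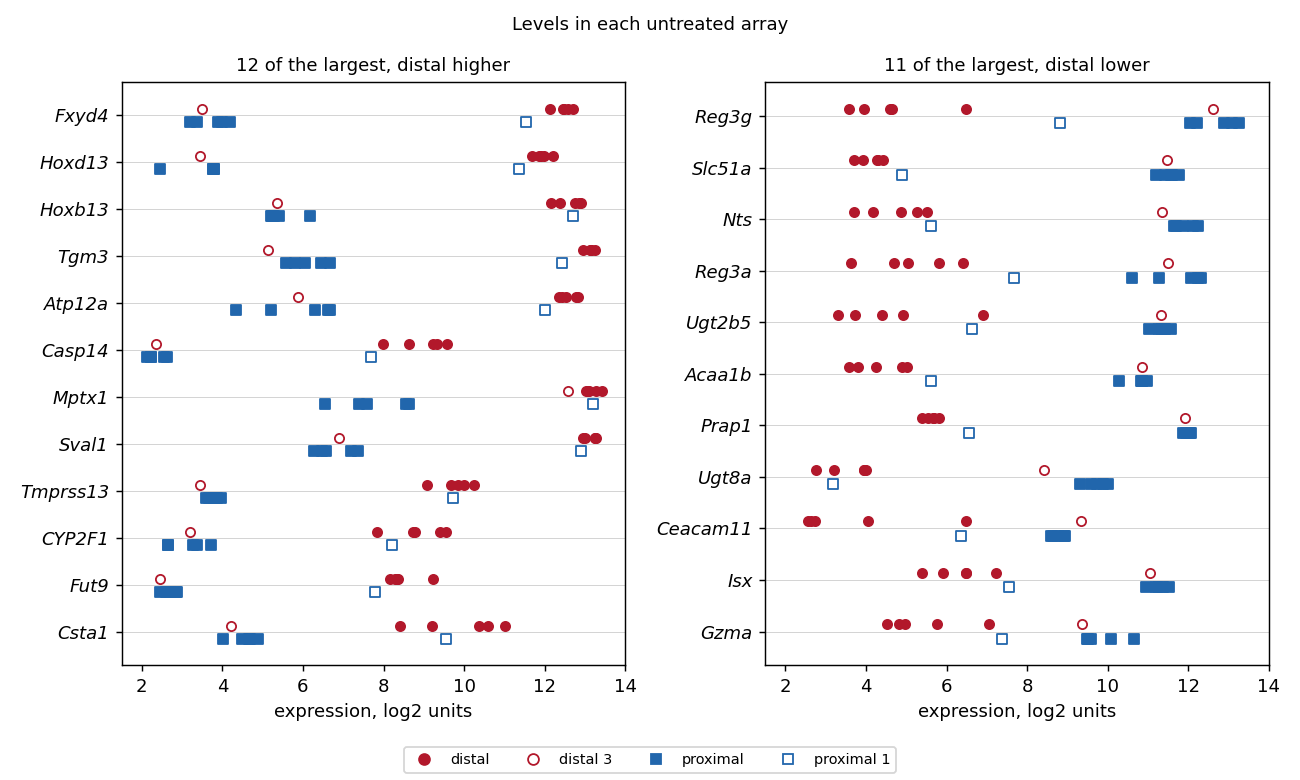
Level in every untreated array of 12 genes higher and 11 genes lower in the distal colon, from the 12 largest differences of each direction, on the log2 scale; red circles are distal arrays and blue squares proximal arrays, and the open symbols are distal 3 and proximal 1. Apart from the open symbols no red point lies among the blue ones, and Fxyd4 reads 12.14 to 12.71 in distal against 3.19 to 4.18 in proximal arrays.

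The 250 bases upstream of the start of the 2 largest genes of each direction that have an entry in the RefSeq promoter table (GRCm38.p6) are shown so that the start regions of oppositely placed genes can be read side by side. Capitals mark matches to TATAAA, the TATA box, or TTTATNG, the core of a site for the intestinal CDX factors, on either strand, and overlapping matches form 1 capital run. Fxyd4 (chr6:117937336-117937585, minus strand, 58.0% G and C) and Slc51a (chr16:32487880-32488129, minus strand, 53.2%) hold neither motif. Hoxd13 (chr2:74667975-74668224, plus strand, 74.4%) holds TATAAA on both strands, from 126 and 124 bases upstream. Reg3g (chr6:78468875-78469124, minus strand, 47.2%) holds overlapping matches of both motifs from 161 and from 28 bases upstream.
Fxyd4: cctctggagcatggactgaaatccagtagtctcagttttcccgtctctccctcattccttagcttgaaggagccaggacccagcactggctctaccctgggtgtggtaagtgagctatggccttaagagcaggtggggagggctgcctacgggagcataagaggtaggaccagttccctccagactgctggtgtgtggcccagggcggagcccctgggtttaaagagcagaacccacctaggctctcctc
Hoxd13: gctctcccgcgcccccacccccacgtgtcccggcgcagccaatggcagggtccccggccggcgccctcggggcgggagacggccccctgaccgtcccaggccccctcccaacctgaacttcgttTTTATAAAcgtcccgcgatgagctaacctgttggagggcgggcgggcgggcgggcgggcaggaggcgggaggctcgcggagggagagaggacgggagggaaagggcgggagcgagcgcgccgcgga
Reg3g: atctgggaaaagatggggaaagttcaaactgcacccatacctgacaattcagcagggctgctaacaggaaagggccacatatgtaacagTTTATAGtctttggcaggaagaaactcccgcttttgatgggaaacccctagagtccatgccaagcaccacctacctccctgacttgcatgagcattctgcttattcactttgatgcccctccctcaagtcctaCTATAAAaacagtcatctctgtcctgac
Slc51a: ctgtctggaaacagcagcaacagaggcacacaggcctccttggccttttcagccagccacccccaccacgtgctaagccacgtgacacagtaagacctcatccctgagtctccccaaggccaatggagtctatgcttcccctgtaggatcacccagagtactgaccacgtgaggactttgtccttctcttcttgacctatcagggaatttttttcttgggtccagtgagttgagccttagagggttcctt

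Of the genes tested, 9800 of 14194 had a promoter in that table. TTTATNG was found in 6.51% of them and TATAAA in 7.05%. Among the 423 promoters of genes higher in the distal colon the shares were 8.51% and 10.2%, and among the 578 promoters of genes lower there 6.40% and 9.69%. A match is a description of letters and not a bound site.

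Sodium and potassium transport under aldosterone was measured for all 21 listed genes. As labelled, 3 were higher in the distal colon and none lower, with a median difference of 0.19. Atp12a, the potassium-absorbing proton pump of the distal colon, read 12.36 to 12.83 in the 5 other distal and 4.33 to 6.66 in the 5 other proximal arrays, with 5.87 in distal 3 and a level in proximal 1 just under that of the other distal arrays. The difference was 4.61 ± 1.03 (adjusted p = 0.00759), or 6.76 ± 0.47 without the 2 arrays. Scnn1a, the alpha subunit of the epithelial sodium channel, did not overlap between the regions as labelled: 8.83 to 9.69 in the 6 distal and 8.01 to 8.57 in the 6 proximal arrays. It rose by 1.21 ± 0.23 (adjusted p = 0.00459), or 1.39 ± 0.24.

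The gamma subunit Scnn1g (1.64 ± 0.57, adjusted p = 0.0679) and the beta subunit Scnn1b (0.54 ± 0.48, adjusted p = 0.507) were not called as labelled. Scnn1g was called without the 2 arrays (2.08 ± 0.60, adjusted p = 0.0114), and Scnn1b was not (0.85 ± 0.48, adjusted p = 0.210). Nr3c2, the aldosterone receptor, had 0.32 ± 0.15 (adjusted p = 0.195). The list counted 5 higher and 4 lower without the 2 arrays.

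Electroneutral absorption and anion transport was measured for 25 of 27 genes, with 2 higher and 5 lower (median -0.14), and 3 and 10 without the 2 arrays. Car12, a membrane carbonic anhydrase, was lower (-2.48 ± 0.51, adjusted p = 0.00552), as were the cytosolic carbonic anhydrase Car13 (-1.23) and Guca2b, the precursor of uroguanylin, which stimulates fluid secretion (-1.0 ± 0.21). The water channel Aqp4 (1.60 ± 0.40, adjusted p = 0.0132) and the calcium-activated chloride channel Ano1 (1.28 ± 0.22, adjusted p = 0.00397) were higher. Aqp4 stood at 12.57 to 13.24 in the 5 other distal and 10.21 to 10.90 in the 5 other proximal arrays. The sodium-proton exchanger Slc9a3 (0.00, adjusted p = 0.999) and the chloride-bicarbonate exchanger Slc26a3 (0.14, adjusted p = 0.741) were not called, and Best2, a bicarbonate channel, had 1.92 ± 0.65 (adjusted p = 0.0576), or 2.84 ± 0.57 without the 2 arrays (adjusted p = 0.000504).

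Of the bile acid and lipid absorption genes, 6 of 23 measured (26 listed) were lower in the distal colon and none higher, with a median of -0.58, and 13 were lower and 1 higher without the 2 arrays. Next to Slc51a came Apoa1, the apolipoprotein of high-density lipoprotein (-3.05 ± 0.83, adjusted p = 0.0214), Mogat2, which rebuilds triglycerides (-2.15 ± 0.54), the fatty acid binding protein Fabp2 (-1.29 ± 0.37) and Apoa4 (-0.67). Apoa1 ran from 5.55 to 5.93 in the 5 other distal arrays and from 8.64 to 11.12 in the 5 other proximal arrays. The ileal bile acid importer Slc10a2 (-2.05 ± 0.73, adjusted p = 0.0721) and the binding proteins Fabp6 (-1.76 ± 0.58, adjusted p = 0.0533) and Fabp1 (-1.80 ± 0.62, adjusted p = 0.0621) missed the threshold as labelled. Each was called without the 2 arrays, Slc10a2 with -3.50 ± 0.34, Fabp6 with -2.51 ± 0.54 and Fabp1 with -3.03 ± 0.29.

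Of 24 measured genes of fatty acid oxidation and ketogenesis (25 listed), 9 were lower in the distal colon and none higher, with a median of -0.41. Acaa1b, the peroxisomal thiolase, had 3.57 to 5.01 in the 5 other distal and 10.27 to 10.98 in the 5 other proximal arrays, with 10.86 in distal 3 and 5.6 in proximal 1. Its difference was -4.50 ± 0.91 as labelled (adjusted p = 0.00544) and -6.45 ± 0.32 without the 2 arrays. Acads, which oxidises short-chain fatty acids (-0.84), and the peroxisomal enzyme Ehhadh (-0.72) were lower too. Without the 2 arrays 18 of the 24 were lower and none higher, and all 24 differences were negative.

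Among carriers of sugars, amino acids and short-chain fatty acids, 5 of 25 measured (27 listed) were higher and 2 lower, and 5 and 5 without the 2 arrays. The peptide carrier Slc15a1 had the largest difference, with 12.45 to 12.79 in the 5 other distal and 8.85 to 9.97 in the 5 other proximal arrays (2.26 ± 0.44, adjusted p = 0.00459). The small amino acid carrier Slc36a1 (1.97), the glutamate carrier Slc1a1 (1.85) and the creatine carrier Slc6a8 (1.26) were also higher, and Slc3a1, a subunit of the cystine carrier, was lower (-1.52 ± 0.24, adjusted p = 0.0037). For Slc1a1 distal 3 read 10.62, between the 11.44 to 11.65 of the other distal and the 8.73 to 9.49 of the 5 other proximal arrays.

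Xenobiotic metabolism was measured for 27 of 46 genes, 2 higher and 6 lower (median -0.24), and 3 and 13 without the 2 arrays. Ugt2b5 had 3.31 to 6.90 in the 5 other distal and 11.02 to 11.58 in the 5 other proximal arrays (-4.78 ± 0.97, adjusted p = 0.00544). Cyp4b1, a cytochrome that oxidises fatty acids and protoxins, stood at 6.57 to 7.15 against 10.79 to 11.62 (-3.11 ± 0.59, adjusted p = 0.00459), and the carboxylesterase Ces1f had -1.50. The cytochrome Cyp2d9, whose probe set reads other genes too (1.92 ± 0.36), and the alcohol dehydrogenase Adh1 (1.38 ± 0.42, adjusted p = 0.0377) were higher in the distal colon.

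Mucosal glycosyltransferases, enzymes that build sugar chains, differed in both directions, 7 higher and 6 lower of 27 measured (30 listed). Fut9, which adds fucose to make Lewis x, had 8.15 to 9.22 in the 5 other distal and 2.44 to 2.88 in the 5 other proximal arrays (3.93 ± 0.86, adjusted p = 0.00675), the proximal values lying below the background guide. B3gnt7, which extends sulfated lactosamine chains, was higher (3.03 ± 0.80, adjusted p = 0.0174), as was the sialyltransferase St3gal6 (2.08 ± 0.43). B4galnt1, a ganglioside synthase (-2.19 ± 0.45), and the sialyltransferase St3gal1 (-1.72 ± 0.42) were lower. Without the 2 arrays the counts were 12 higher and 7 lower, and in arrays 4 to 6 alone 12 and 5.

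Of 20 goblet cell genes measured (28 listed), 2 were higher and 3 lower, and the median was 0.00. The counts were 7 higher and 5 lower without the 2 arrays, but 1 higher and 5 lower in arrays 4 to 6 alone. B3gnt6, which makes the core 3 mucin sugar, was lower (-2.56 ± 0.56, adjusted p = 0.00658), with Spdef, a goblet cell factor (-0.83), and Galnt12 (-0.52). Muc1, a membrane mucin (1.56 ± 0.43, adjusted p = 0.0217), and Clca1, a secreted goblet cell protein (0.47), were higher. The gel-forming mucin Muc2 had -0.41 ± 0.21 (adjusted p = 0.210). Retnlb, a secreted antibacterial protein of goblet cells, was uneven among the distal arrays: distal 1 to 3 read 10.91, 12.59 and 13.41, distal 4 to 6 read 3.93, 3.50 and 4.82, and the proximal arrays read 11.27 to 13.34. Its difference was -3.61 ± 1.28 (adjusted p = 0.0715).

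Hormone genes were measured for 25 of 31, with 1 higher and 4 lower (6 and 7 without the 2 arrays). Nts stood at 3.70 to 5.52 in the 5 other distal and 11.65 to 12.24 in the 5 other proximal arrays, with 11.35 in distal 3 and 5.61 in proximal 1 (-5.05 ± 1.00, adjusted p = 0.00474). Insl5, a hormone of colonic L cells, ran opposite, with 11.44 to 12.21 against 5.89 to 7.45 and with 5.05 in distal 3 and 11.96 in proximal 1 (3.20 ± 1.01, adjusted p = 0.0442, or 5.22 ± 0.53 without the 2 arrays). Sct, secretin (-2.39 ± 0.56), Pcsk1, a prohormone convertase (-0.96), and Cck, cholecystokinin (-0.67), were lower in the distal colon. The L cell hormones Pyy (0.61, adjusted p = 0.108) and Gcg (-0.49, adjusted p = 0.205) were not called as labelled, and Pyy was called without the 2 arrays (1.02 ± 0.18, adjusted p = 0.0001).

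Epithelial defence genes numbered 19 measured of 28, with 1 higher and 3 lower, and 4 and 3 without the 2 arrays. Reg3g and Reg3a were joined on the lower side by Saa1, a serum amyloid protein (-3.18 ± 0.81, adjusted p = 0.0145), with 5.67 to 6.78 in the 5 other distal and 10.19 to 11.04 in the 5 other proximal arrays. Its near copy Saa2 was higher (0.59 ± 0.11, adjusted p = 0.00459), and some Saa probe sets may read both genes. The list's median, 0.10, has the sign opposite to its larger count of lower genes.

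Small intestinal and Paneth cell genes were included because tissue next to the cecum and ileum could carry them. Of 15 measured (21 listed) 5 were lower in the distal colon and none higher, with a median of -1.14, and 9 and 1 without the 2 arrays. Alpi, intestinal alkaline phosphatase, had -3.31 ± 0.75 (adjusted p = 0.00829), Mmp7, which activates defensins, -2.49 ± 0.63, Cubn, the vitamin B12 receptor of the ileum, -1.95 ± 0.59, and Ada, adenosine deaminase, -1.14 ± 0.29. The defensin probe set named Defa3, which reads several defensin genes, varied among the proximal arrays: it read 12.82, 12.35, 6.84, 10.46 and 12.20 in proximal 2 to 6 and 6.84 in proximal 1, against 5.50 to 6.36 in the 5 other distal arrays and 11.96 in distal 3. Its difference was -3.22 ± 1.04 (adjusted p = 0.0474). Lct, lactase, which defines small intestinal absorptive cells, stood at 4.63 to 5.35 in the 5 other distal and 4.82 to 5.20 in the 5 other proximal arrays. The mean of this list over its members, each centred on its mean over all 28 arrays, was -1.31 to -1.07 in the 5 other distal and -0.55 to 1.07 in the 5 other proximal arrays. Its part in the differences of the bile acid and lipid genes was not tested.

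Among barrier genes, 2 claudin and junction genes were higher and 2 lower of 16 measured (21 listed), and 5 and 4 without the 2 arrays. Cldn8, a claudin that tightens the distal colon against sodium leak, was higher (1.25 ± 0.30, adjusted p = 0.0106), and so was Marveld3 (0.52). Cldn15, which forms sodium-permeable pores, was lower (-0.93 ± 0.26, adjusted p = 0.0275), as was Cldn10 (-0.69). No member of the 6 measured keratins (8 listed) was called by limma, and at an unadjusted p under 0.05 0 were higher and 2 lower. Krt20, a surface colonocyte keratin, came nearest (-0.32, adjusted p = 0.125), and 1 was called without the 2 arrays.

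Basement membrane and matrix genes were measured for 35 of 36, with 2 higher and none lower, and 10 and none without the 2 arrays. Lama3, a laminin chain of epithelial basement membranes, separated the 6 distal arrays (8.63 to 10.39) from the 6 proximal arrays (8.18 to 8.62) by a narrow gap (1.33 ± 0.21, adjusted p = 0.0037). Fn1, fibronectin, had 0.65 ± 0.17. Wnt target and stem cell genes had 1 higher, Smoc2 (0.59, adjusted p = 0.0445), and 1 lower, Cd44 (-0.84, adjusted p = 0.0271), of 23 measured (24 listed), and 2 and 3 without the 2 arrays. Of 28 cell cycle genes measured (29 listed) 1 was lower, Rrm2 (-0.64), and none higher, and 4 were lower without the 2 arrays. The Wnt and cell cycle counts, and the matrix counts as labelled, lie near or under the shares over all genes tested. The matrix count of 10 higher genes without the 2 arrays lies above its share. Those shares were 4.29% higher and 5.54% lower as labelled, and 11.3% and 14.1% without the 2 arrays. The proliferation marker Mki67 had 10.80 to 12.16 in the 6 distal and 11.03 to 11.99 in the 6 proximal arrays (-0.01, adjusted p = 0.986), and arrays 4 to 6 of both regions were the 6 lowest.

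Of 27 measured interferon response genes (30 listed), 17 were lower in the distal colon and none higher, with a median of -1.34. Isg15, an interferon-induced modifier related to ubiquitin, did not overlap in any array: 7.0, 7.75 and 8.08 (lowest, median and highest) in the 6 distal against 8.81, 10.55 and 11.71 in the 6 proximal arrays (-2.79 ± 0.48, adjusted p = 0.00397). Oas3 (-3.13 ± 0.66), Oasl2 (-2.18 ± 0.47) of the same antiviral family, Usp18, which removes Isg15 from proteins (-2.64 ± 0.51), and Irf7, a factor that drives interferon genes (-1.78 ± 0.37), followed. The proximal arrays were spread: the list mean was 0.58, 0.92 and 0.60 in proximal 2 to 4, -0.71 and -0.32 in proximal 5 and 6 and -0.68 in proximal 1. In the distal arrays it was -1.56 to -0.75, distal 3 included at -0.93. For this list the mean of distal 3 thus lay among the distal arrays, unlike its Hox levels. Its members were not alike in this: for Irf7, distal 3 stood apart from the other distal arrays. The counts were 19 lower without the 2 arrays and 10 lower in arrays 4 to 6 alone, with none higher in either.

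T and NK cell genes had 10 lower and none higher of 31 measured (32 listed), with a median of -0.70, and 16 lower without the 2 arrays. Gzma read 4.52 to 7.04 in the 5 other distal and 9.48 to 10.64 in the 5 other proximal arrays, with 9.37 in distal 3 and 7.37 in proximal 1 (-3.37 ± 0.62, adjusted p = 0.00459). Cd7 (-1.95), the granzyme Gzmb (-1.93), the T cell receptor chains Cd3g (-1.76, adjusted p = 0.0102) and Cd3e (-1.24, adjusted p = 0.0302) and the cytotoxic co-receptor Cd8a (-1.55, adjusted p = 0.0129) were lower. The list mean ran from -1.49 to -0.92 in the 5 other distal arrays and from -0.34 to 0.26 in the 5 other proximal arrays, with 0.01 in distal 3 and -0.57 in proximal 1.

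Of 23 B and plasma cell genes measured (24 listed), 1 was lower, the factor Prdm1 (-1.13, adjusted p = 0.0420). The median of the list was 0.31, and 16 of its 23 differences were positive. Without the 2 arrays 6 were higher and 1 lower. Among the higher ones was the B cell surface protein Ms4a1 (2.16 ± 0.55, adjusted p = 0.00494). In arrays 4 to 6 alone 0 were higher and 1 lower, with a median of 0.46. As labelled Ms4a1 had 1.03 (adjusted p = 0.390), and Jchain, abundant in plasma cells, had -0.25 (adjusted p = 0.301). None of 19 macrophage genes (23 listed) was called by limma as labelled, and at an unadjusted p under 0.05 0 were higher and 1 lower. The nearest was Clec10a (-0.71, adjusted p = 0.0723), and 1 was called without the 2 arrays. One mast cell gene of 8 measured (13 listed) was higher, the chymase Cma1 (1.60 ± 0.45, adjusted p = 0.0269). It ran against most of its list, where 6 of the 8 differences were negative and the median was -0.1. One neutrophil gene of 10 (15 listed) was lower, Mmp9 (-1.60). As labelled, the B and plasma cell counts lie under the shares over all genes tested, 4.29% higher and 5.54% lower. The mast cell and neutrophil counts are 1 gene each in short lists and do not describe those cell types.

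Smooth muscle had 1 higher gene of 18 measured (19 listed), Synm (0.64). Enteric neurons and glia had 1 lower of 22 (25 listed), the neuropeptide Gal (-0.82). Both counts lie near the shares over all genes tested, 4.29% higher and 5.54% lower. Adipocyte genes had 3 lower of 15 (17 listed): Cidec, a lipid droplet protein (-1.73 ± 0.41), and the lipases Lipe (-0.88) and Pnpla2 (-0.54). Squamous genes, which would mark the anal end, had 1 lower of 10 measured (20 listed), Sprr1a (-2.70 ± 0.65), and none higher. The median of the squamous list was 0.2, and 6 of its 10 differences were positive. Of 12 pancreatic genes measured (21 listed), Sycn (1.37) and Cela1 (1.24) were higher in the distal colon. Cela1 was not bound to the arrays with high Cpa1: it read 12.43 to 13.35 in the 5 other distal arrays and 10.94 to 11.48 in the 5 other proximal arrays. Leaving out distal 3 and proximal 1 gave other counts of higher and lower genes. They were 1 and 2 for mast cells, 3 and 0 for smooth muscle and 2 and 2 for neurons and glia. For adipocytes they were 0 and 4, for squamous genes 1 and 2 and for pancreatic genes 4 and 0. The pancreatic list mean was high in distal 1 (2.83), which was kept, and in proximal 1 (3.2), which was left out. The list's median was then 1.15, whereas arrays 4 to 6 alone gave 0.1, with 2 higher and 0 lower. None of 16 immediate early and heat shock genes (19 listed) was called by limma as labelled, and at an unadjusted p under 0.05 0 were higher and 3 lower. Ier3 came nearest (-0.65, adjusted p = 0.0605), and 3 were called without the 2 arrays.

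**Figure D4:**
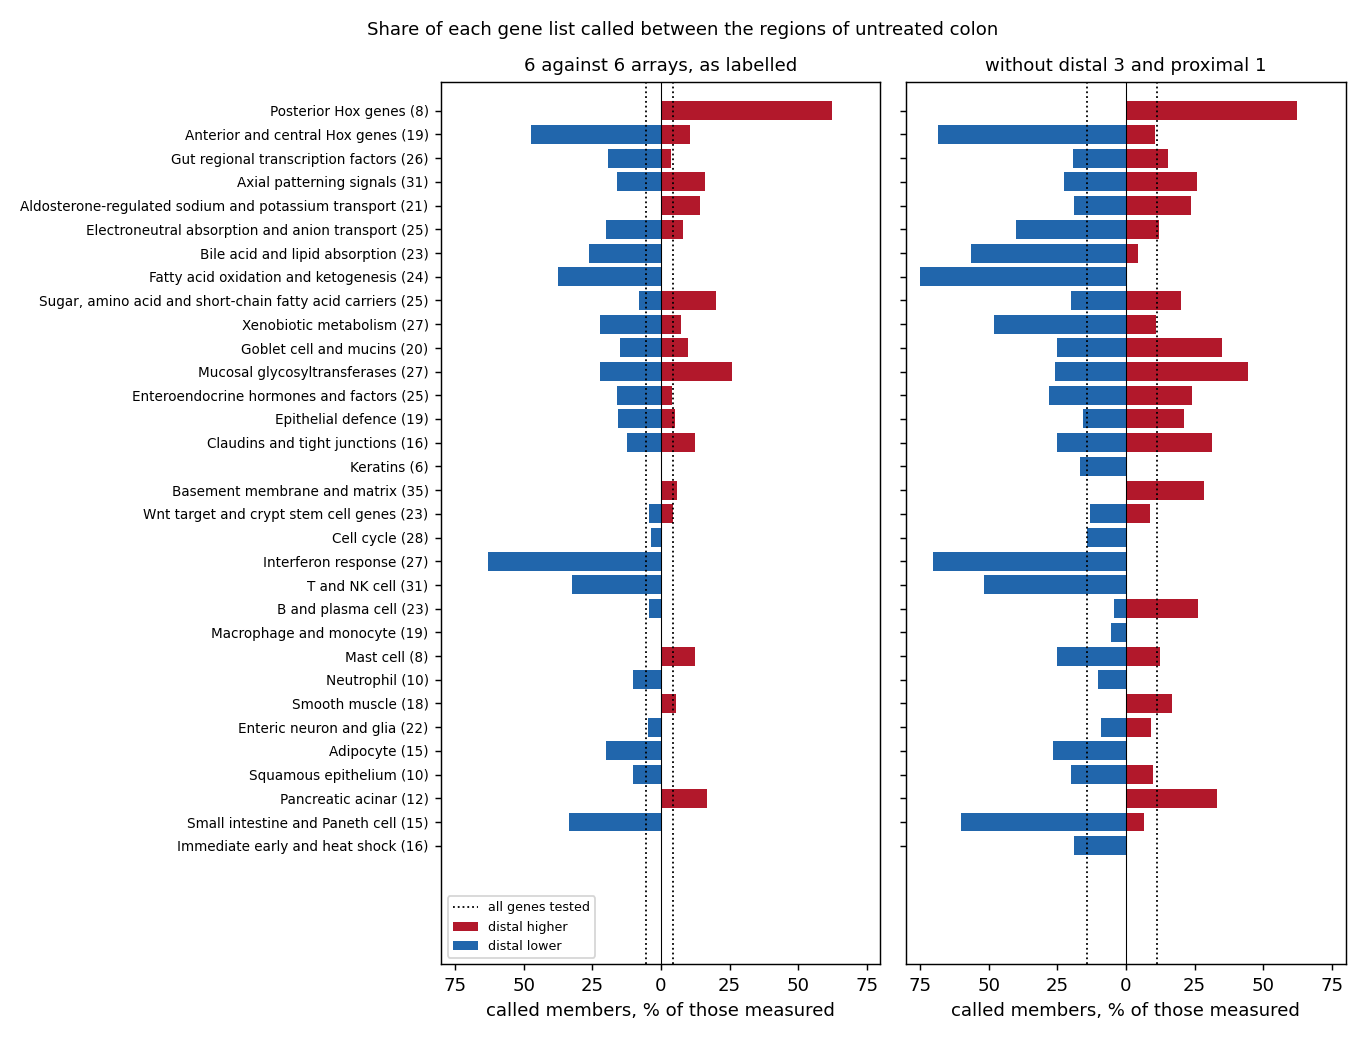
Share of the measured members of each of the 32 gene lists called higher (red, right) or lower (blue, left) in the distal than in the proximal untreated colon, with the number measured in brackets, as labelled and without distal 3 and proximal 1. The dotted lines are the shares over all genes tested, 4.29% higher and 5.54% lower as labelled and 11.3% and 14.1% without the 2 arrays; 17 of 27 interferon genes are lower as labelled.

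The regional contrast was then read in treated mice, whose arrays are others than those compared above. In the distal colon of early mice 90 genes were higher (0.634%) and 180 lower (1.27%). The early counts were 378 and 595 when distal 3 and proximal 1, which share in the estimate of the spread, left the fit. In late mice 2712 were higher (19.1%) and 2522 lower (17.8%). The 223 genes called alike in both states comprised 68 higher and 155 lower ones. Of these, 51 and 91 were called in the same direction in untreated colon as labelled, none in the opposite one, and 61 and 128 without the 2 arrays. Hoxd13 read 11.05 to 11.84 in the 3 early distal and 3.01 to 4.51 in the 3 early proximal arrays, and 11.32 to 11.98 in the 6 late distal and 3.57 to 7.52 in the 4 late proximal arrays, with differences of 7.52 ± 1.81 and 7.07 ± 1.43. Slc51a differed by -7.00 ± 1.53 in early and -7.05 ± 1.21 in late mice. The interferon list had no called gene in early mice (median 0.29). In late mice 3 of its genes were higher and 5 lower (median -0.38). The T and NK cell list had none in early mice (median -0.02), and 4 higher and 6 lower in late mice (median -0.32).

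A further 6 genes are given because they were called in the same direction in all 3 states. Slc13a1, a sulfate carrier, had -3.20 in untreated, -3.77 in early and -4.82 in late mice. Hkdc1, a hexokinase of the gut (-3.16, -3.85 and -5.28), Adra2a, an adrenergic receptor (-2.97, -3.27 and -3.47), and Osr2, a zinc finger factor (-2.96, -4.87 and -4.70), were lower in the distal colon too. Nxpe4 (2.98, 3.80 and 2.33) was higher, and so was a gene listed as KHDC1L, for which no mouse gene matched (2.90, 5.27 and 6.17).

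Whether the regional difference itself was another in late mice was tested as an interaction, the late minus the untreated difference, and 2742 genes passed (19.3%). As labelled, Hoxd13 (1.38 ± 1.92, adjusted p = 0.657) and Slc51a (-1.99 ± 1.63, adjusted p = 0.417) did not pass. Without distal 3 and proximal 1 the untreated difference of both genes was larger in size than the late one. The sign of their interaction thus depended on those arrays. Reg3a passed: late distal colon read 11.47 to 11.84 and late proximal colon 10.68 to 12.69. That was a difference of 0.33 ± 1.13 against -4.85 ± 1.01 in untreated colon (interaction 5.18 ± 1.51, adjusted p = 0.0179). The defensin probe set Defa3 had a difference of 2.34 in late mice against -3.22 in untreated mice (interaction 5.56 ± 1.56, adjusted p = 0.0136), and Gata5 one of 1.80 in late against -1.05 in untreated mice (interaction 2.85 ± 0.42, adjusted p = 4.17e-05). Scnn1a had -0.29 in late mice against 1.21 in untreated mice (interaction -1.49 ± 0.35, adjusted p = 0.00397). Per the labels, tumours had formed in the late distal colon and not in the proximal colon, so region and lesion cannot be told apart there.

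**Figure D5:**
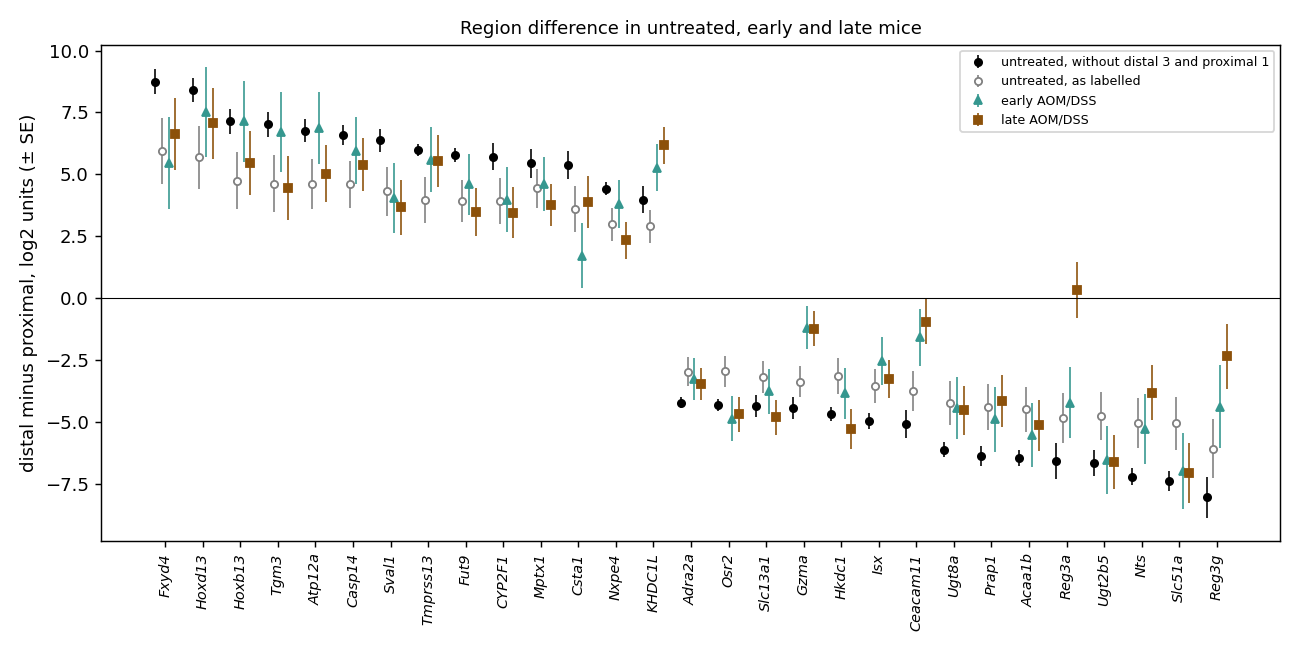
Difference between distal and proximal colon in log2 units, with SE bars, of the same genes and 6 called in all 3 states, in untreated mice (filled circles without distal 3 and proximal 1, open circles as labelled), early AOM/DSS mice (triangles) and late AOM/DSS mice (squares). Reg3a, at 0.33 in late and -4.85 as labelled in untreated mice, is the gene of these whose late value lies on the other side of 0.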

How the data were processed

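RNA of 28 mouse colon samples was measured on Affymetrix arrays. Per the labels, RNA was extracted with Trizol and amplified before hybridisation. The deposited log2 values were used as the authors made them, with RMA and Partek 6.5 named in the submitters' processing notes. The authors' deposited table of 26933 of the 45101 probe sets gave gene names: 20030 matched a RefSeq mouse symbol, 1642 a synonym and 11 a gene ID, 2300 kept the name given, and 230 with several genes and 2720 with no name were left out. The probe set with the highest mean stood for a gene, giving 14194 genes, of which 5897 had several probe sets.

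Group means of the 6 groups were fitted over all 28 arrays with limma 3.58.1 in R 4.3.3 (22 residual degrees of freedom), with Benjamini-Hochberg adjustment over all genes, and genes with an adjusted p under 0.05 are those called. SE is limma's moderated SE. Plots were drawn with matplotlib 3.10.9 and tables made with Python 3.11.15 (numpy 2.4.6, pandas 2.3.3), and the fit was tested on simulated data. Genes were named by rule: the 12 largest differences of each direction called with and without distal 3 and proximal 1, up to 5 called members of each of 32 lists or else the member nearest to a call, the 6 largest called alike in all 3 states, and the gene called by the untreated arrays alone. Other members are named where their list is discussed, and a few genes are not reported here. The lists held 786 genes, of which 647 were measured and 9 stood in several lists. The members and lists were chosen with earlier results of these data known. Replicates are called biological in the labels, and which arrays share a mouse is not given in the sources used here. Alternatives changed the arrays in the fit, the replicate block, array weights, moderation, normalization, the filter on low values and the probe set of a gene.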

Additional observations from a re-analysis of the deposited data

Results flagged for a closer look

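Within their groups of 6, distal 3 and proximal 1 stood apart from the other arrays on the scale of regional markers, at -0.98 and 0.32. Over 155 genes examined, distal 3 stood apart from its group in 77, distal 1 in 4 and distal 5 in 1, and proximal 1 stood apart in 86 and proximal 4 in 1. Over the 32 list means, distal 3 stood apart in 7, distal 1 in 1, the pancreatic list, and proximal 1 in 9. Chance marks about 1 in 20 groups in this way, but these genes were chosen with regional differences in the same arrays known, and the Hox genes were used to find the 2 arrays, so the counts are a description and are not to be read against that rate.

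The regional difference of late mice differed from that of untreated mice, by the interaction test over all genes, in 27 of the genes named. In 13 of them the late difference was the more negative one. The change was -2.21 for Aldh1a1, -2.20 for Ces1f, -1.79 for Ppara, -1.72 for Cidec and -1.67 for Fabp2. It was -1.54 for Slc26a3, -1.49 for Scnn1a, -1.45 for Hoxd3, -1.24 for Nr3c2 and -1.16 for Synm. It was -1.03 for Gcg, -0.91 for Ehhadh and -0.82 for Cdx2. In the other 14 the late difference was the more positive one. The change was 1.08 for Cd44, 1.67 for Smoc2, 1.81 for Isl1, 2.02 for Ier3 and 2.14 for Muc1. It was 2.82 for Usp18, 2.85 for Gata5, 2.85 for Shh and 3.27 for the gene listed as KHDC1L. The largest were 4.35 for Mmp9, 5.00 for Saa1, 5.18 for Reg3a, 5.56 for Defa3 and 6.47 for Mmp7. Without distal 3 and proximal 1, 22 of the 27 were called with the same sign, and 59 named genes were called in all. Cidec (-1.12), Fabp2 (-1.24), Gcg (-0.94), Cdx2 (-0.53) and Isl1 (1.02) were no longer called. Among those still called, the change was smaller by over 1.5 times for Aldh1a1 (-1.45), Ces1f (-1.43), Hoxd3 (-0.88) and Muc1 (1.26).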

How the results depend on the processing

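The count of called genes depended on which arrays entered the fit and on their weights. Against 1395 called genes as labelled (609 higher and 786 lower in the distal colon), the 12 untreated arrays alone gave 1 (1 higher, 0 lower, with 3167 at an unadjusted p under 0.05), and untreated arrays 1 to 3, which hold both distal 3 and proximal 1, gave 0 (0 higher, 0 lower, with 1183 at an unadjusted p under 0.05 in limma). Leaving out distal 3 and proximal 1 gave 3601 (1605 higher, 1996 lower), and 3435 (1601 and 1834) with no treated array. Array weights gave 5134 (2486 and 2648). Arrays 4 to 6 with no treated array, an alternative chosen after seeing the data, gave 2406 (1170 and 1236). Leaving out 1 untreated array at a time gave 727 to 2819 called genes, 324 to 1219 higher and 403 to 1600 lower. The count was 2819 without distal 3 and 2474 without proximal 1. It was 790, 874, 762 and 740 without distal 1, 2, 4 and 5, and 727, 776, 754 and 864 without proximal 2, 3, 5 and 6. Why the count moved was not tested.

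The replicate number as a block (replicate block) gave 1578 called genes over all arrays, and 811 (339 higher, 472 lower) over the 12 untreated arrays. Same-numbered distal and proximal arrays had correlations of their deviations between -0.004 and 0.586, so the numbers were not taken as pairs. In early mice 973 genes were called without distal 3 and proximal 1, against 270 with them in the shared fit.

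Median centring gave 1350 called genes, a second quantile normalization 1329, a filter on means above 6 gave 1317, and all probe sets gave 1871 of 45037. Of 155 genes followed through 30 settings, 4632 values included 3937 on the same side of the threshold, 599 no longer called and 96 newly called. The sign changed in 65 values of 12 genes, all counted among the 3937 and none of them called in either setting. Signal near the background, 4.109, limits the size of the largest differences.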
